A study of Mus musculus with 2 samples.

Results

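The nuclear-encoded genes of the mitochondrial respiratory chain and ATP synthase were followed in T cells from EMT6 tumours, in 1 library from mice given mSTAR1302 and 1 from mice given vehicle. Members were taken by symbol, as every gene whose name starts with Ndufa, Ndufb, Ndufc, Ndufs, Ndufv, Uqcr, Cox4, Cox5, Cox6, Cox7, Cox8 or Atp5. This gave 90 of the 32285 genes in the files. They comprised 37 subunits of complex I, 8 assembly factors of complex I (the Ndufaf genes), 8 subunits of complex III, 20 genes of complex IV and 17 of ATP synthase. Ndufa4 and its relative Ndufa4l2 were counted with complex IV, because NDUFA4, first described in complex I, is a subunit of complex IV.

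The respiratory chain sits in the inner mitochondrial membrane. Complexes I, III and IV pass electrons from NADH to oxygen and pump protons, and ATP synthase uses the proton gradient to make ATP. Most subunits are encoded in the nucleus and imported, while a few core subunits of each of these complexes are encoded by mitochondrial DNA, so an assembled complex draws on both genomes. In T cells the chain is known for supporting proliferation, memory and the function of regulatory T cells, and loss of mitochondrial capacity is a described feature of exhausted T cells in tumours.

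The tumours grew from EMT6, a transplantable mouse mammary carcinoma line, in BALB/c animals aged 4 to 6 weeks, which were randomised at a tumour volume of 80 to 150 mm3. The treated group received mSTAR1302 for 2 weekly cycles into the peritoneum, and the controls received vehicle. Its makers describe mSTAR1302 as interleukin-2 joined to an antibody that binds mouse Vβ13-2 and Vβ13-3, variable chains of the T cell receptor. Digested tumours were enriched for CD4 and CD8 T cells on magnetic beads, and the cells were profiled with droplet 3' RNA sequencing. The sources used here do not give the number of mice per library.

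Each group was 1 library, so no difference below has a replicate check or a test. Every 95% interval covers counting error only. Transcripts were counted by unique molecular identifiers (UMIs), 96486469 in the library from mSTAR1302 and 110026997 in that from vehicle. Filtering kept 9155 and 7615 cells with medians of 6260 and 8448 UMIs, and 17 cell barcodes occurred in both libraries. T cells were gated on transcripts. The CD8 gate took cells with a UMI of Cd8a or Cd8b1 but no Cd4, 6290 with mSTAR1302 and 2460 with vehicle. The CD4 gate took cells with a Cd4 UMI but neither Cd8 gene. Foxp3 is the marker of regulatory T cells. The 791 and 622 of them without a Foxp3 UMI are called Foxp3-negative here, and the 146 and 1365 with one Foxp3-positive. A single undetected transcript decides this split, so the names describe UMIs and not protein. The CD8 gate was not split by Foxp3, and its libraries differed in it. A Foxp3 UMI was found in 193 CD8 cells (3.07%) with mSTAR1302 and in 402 (16.3%) with vehicle. All 8 T cell markers had UMIs in each gate of each library. Cd3d, Cd3e and Cd3g are among them and were also used for gating, so their presence is not independent support.

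Markers of other cells differed between the libraries in every gate. A level is given throughout as CPM, counts of a gene scaled to the UMI total of the gated cells (counts per 1000000). The summed level of 6 macrophage and monocyte markers was 56.2 CPM with mSTAR1302 and 686.1 CPM with vehicle in CD8 cells, 72.4 and 833.5 CPM in Foxp3-negative CD4 cells, and 7.22 and 242.1 CPM in Foxp3-positive CD4 cells, where C1qa, C1qc, Csf1r and Adgre1 were at 0 with mSTAR1302. The 4 NK cell markers summed to 12.4 and 79.0 CPM, 9.38 and 243.0 CPM, and 0.802 and 57.0 CPM in the same order, with Klra8 at 0 in every gate and library and Ncr1 at 0 in 3 of them. Vehicle CD4 cells without a Foxp3 UMI also carried more transcript of the other regulatory T cell markers Il2ra, Ctla4, Ikzf2 and Tnfrsf18, which summed to 1018 CPM with mSTAR1302 and 2023 CPM with vehicle. The part of other cells and of these cells in the differences below was not tested, except where a value without them is given.

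The members can be read first as sequence, because their 5' flanks share features that the choice by symbol did not use. RefSeq promoter windows on GRCm38.p6 matched 72 of the 90 members. Over the 250 bases before the start, the member windows held a median of 14.5 CG dinucleotides against 6 over all 27025 windows, and a median GC content of 56.4% against 52.0%. Over the full windows of 300 bases, which add 50 bases after the start, the NRF1 motif GCGCATGC was found on either strand in 11 of 72 members (15.3%) and in 2.81% of all windows. The ETS motif CCGGAAG, read by GABP among other factors, was found in 16 members (22.2%) and in 9.12% of all windows. The YY1 motif AAGATGG was found in 10 members (13.9%) and in 6.48% of all windows, and the letters TATAAA in 8 (11.1%) and in 14.2%. NRF1, GABP and YY1 are factors known for acting on respiratory genes. A match describes letters only, and the members were not drawn to match the length or base composition of the other windows.

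Cox8a and Cox8b encode alternative forms of the same complex IV subunit, and their upstream windows differ in CG content. They are shown because these T cells used only one of the pair: Cox8a was among the most abundant members and Cox8b had no UMI in any gate. Cox8a has 11 CG dinucleotides in chr19:7217617-7217866 on the minus strand and Cox8b has 1 in chr7:140900447-140900696 on the minus strand. Both sequences are RefSeq, GRCm38.p6, 5' to 3' along the gene's strand, ending at the base before the start, with CG in capitals.
Cox8a: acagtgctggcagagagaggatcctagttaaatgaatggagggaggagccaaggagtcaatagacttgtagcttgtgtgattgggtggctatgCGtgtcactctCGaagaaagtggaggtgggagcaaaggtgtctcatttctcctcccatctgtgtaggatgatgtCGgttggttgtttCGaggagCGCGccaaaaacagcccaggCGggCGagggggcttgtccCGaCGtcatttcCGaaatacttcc
Cox8b: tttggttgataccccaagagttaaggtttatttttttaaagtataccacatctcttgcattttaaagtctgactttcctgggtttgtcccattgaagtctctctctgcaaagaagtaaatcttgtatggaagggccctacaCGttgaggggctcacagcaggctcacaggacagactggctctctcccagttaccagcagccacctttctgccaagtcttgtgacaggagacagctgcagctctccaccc

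Cox5a, the gene of a nuclear-encoded subunit of complex IV, had the largest upward ratio of any tested member in the Foxp3-negative CD4 cells. Its window, chr9:57520982-57521231 on the plus strand, held 26 CG dinucleotides, marked in capitals.
Cox5a: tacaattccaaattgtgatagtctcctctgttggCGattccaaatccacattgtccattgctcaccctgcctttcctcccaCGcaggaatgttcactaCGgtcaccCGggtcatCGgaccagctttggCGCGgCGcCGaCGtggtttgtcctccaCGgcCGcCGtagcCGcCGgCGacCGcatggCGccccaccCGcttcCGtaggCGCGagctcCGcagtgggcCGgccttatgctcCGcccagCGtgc

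Atp5l, the gene of a membrane-sector subunit of ATP synthase, and Ndufaf4, that of a complex I assembly factor, were both called in the same gate, the first higher and the second lower with mSTAR1302. Both windows hold the NRF1 letters, and they are shown for that reason, with matches on either strand in capitals. In Atp5l (chr9:44920743-44920992, minus strand) the capitals mark 1 NRF1 match and 1 ETS match. In Ndufaf4 (chr4:24897833-24898082, plus strand) they mark 2 NRF1 matches, 1 on each strand, that overlap.
Atp5l: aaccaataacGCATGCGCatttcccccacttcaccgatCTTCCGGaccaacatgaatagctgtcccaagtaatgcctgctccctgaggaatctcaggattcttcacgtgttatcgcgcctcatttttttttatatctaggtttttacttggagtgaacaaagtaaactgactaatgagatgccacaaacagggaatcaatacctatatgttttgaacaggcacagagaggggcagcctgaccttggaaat
Ndufaf4: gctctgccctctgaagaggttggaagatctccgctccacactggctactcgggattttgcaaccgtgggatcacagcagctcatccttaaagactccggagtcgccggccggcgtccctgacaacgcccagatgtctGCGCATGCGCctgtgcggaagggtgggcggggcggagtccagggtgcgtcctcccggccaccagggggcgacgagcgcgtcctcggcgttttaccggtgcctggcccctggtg

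The first comparison asked how much of the T cell transcriptome the chain took with and without treatment, complex by complex. In CD8 cells the members summed to 21011 CPM with mSTAR1302 and 21541 CPM with vehicle, that is 2.10% and 2.15% of all UMIs. The log2 ratio of mSTAR1302 over vehicle was -0.04 (-0.04 to -0.03). The ATP synthase genes had 6973 and 6956 CPM (log2 ratio 0.00), the complex IV genes 6178 and 6339 CPM (-0.04), the complex III genes 2039 and 2108 CPM (-0.05), the complex I subunits 5669 and 5973 CPM (-0.08) and the complex I assembly factors 151.4 and 164.7 CPM (-0.12). The summed output of the chain in CD8 cells thus differed by under 1.1-fold for each set of genes.

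Among Foxp3-negative CD4 cells the sum was higher with mSTAR1302, at 20359 CPM against 18210 CPM, 1.12-fold (1.11 to 1.13). Complex IV stood at 6118 and 5259 CPM (log2 ratio 0.22, 0.19 to 0.24), complex III at 2086 and 1825 CPM (0.19, 0.15 to 0.23) and ATP synthase at 6642 and 5858 CPM (0.18, 0.16 to 0.20). The value of complex III rested largely on Uqcrh, its most abundant gene, and was 0.06 without it. Of the 8 genes of complex III, 5 lay above 0 and 3 below. The complex I subunits differed less, with 5382 and 5118 CPM (0.07, 0.05 to 0.10). The 8 assembly factors went the other way, with 130.0 and 150.2 CPM (-0.21, -0.37 to -0.05). That is close to the median of -0.18 over all genes tested in this gate. Scaled by the median gene ratio, the set stood at -0.02. Only 3 of its genes had a mean of at least 20 CPM, 1 above 0 and 2 below.

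Among Foxp3-positive CD4 cells the sums were close, 22846 CPM with mSTAR1302 and 22385 CPM with vehicle (log2 ratio 0.03, 0.01 to 0.05). Complex IV was the set with the largest upward ratio, at 6654 and 6328 CPM (0.07, 0.04 to 0.10). All 12 of its tested genes had a ratio above 0, where 32.3% of all genes tested did. The intervals for complex I (0.00, -0.03 to 0.04), complex III (-0.02, -0.07 to 0.04) and the assembly factors (-0.15, -0.38 to 0.06) held 0. ATP synthase had 7472 and 7304 CPM (0.03, 0.00 to 0.06).

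**Figure D1:**
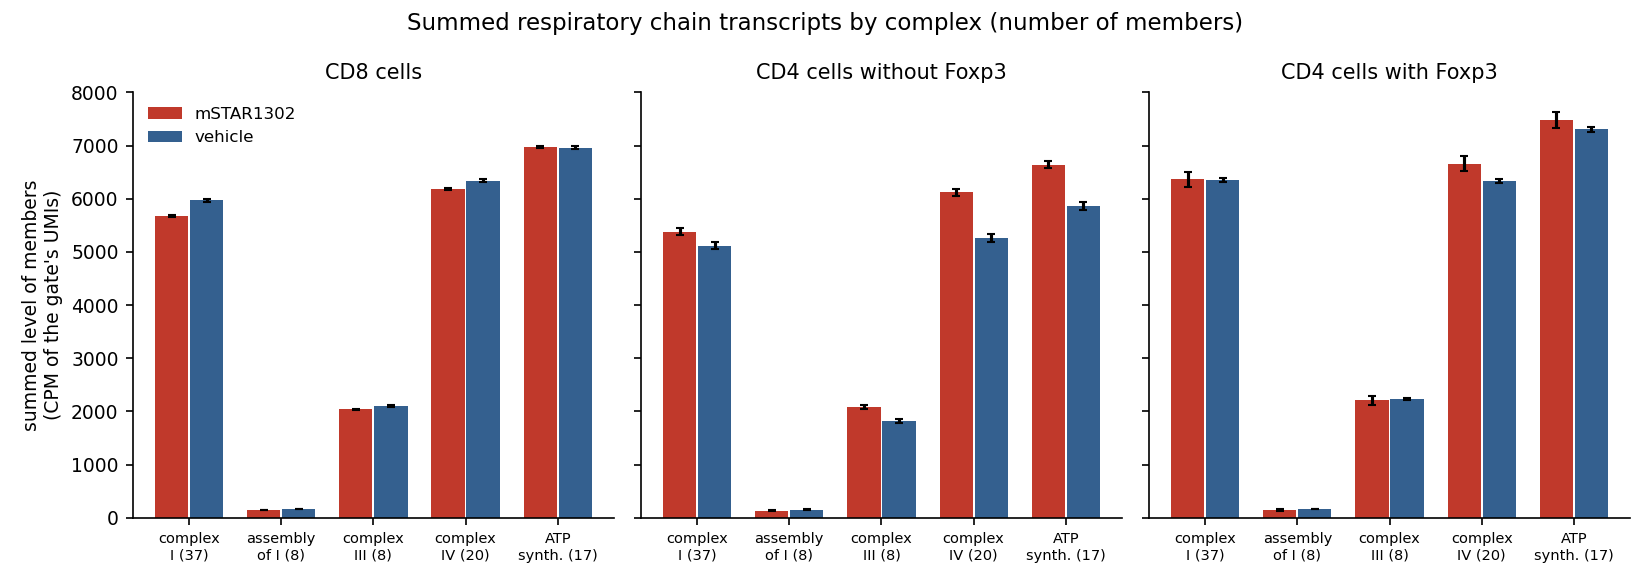
Summed level in CPM (axis from 0) of each set of genes in the gated cells of each library, with bars for mSTAR1302 and vehicle and 95% Poisson intervals that cover counting error only. The bars of the libraries lie close together in CD8 cells and in Foxp3-positive CD4 cells, and in Foxp3-negative CD4 cells the bars of complex III, complex IV and ATP synthase are higher with mSTAR1302.

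For single members a difference was called when it reached 1.3-fold, on log2 of CPM plus 1, among genes with a mean of at least 20 CPM over both libraries. A call is a size, not a significance. That minimum was passed by 78 members in CD8 cells, 77 in Foxp3-negative CD4 cells and 76 in Foxp3-positive CD4 cells. The others were the tissue isoforms Cox4i2, Cox6a2, Cox6b2, Cox7a1, Cox7b2, Cox8b, Cox8c and Ndufa4l2, the assembly factors Ndufaf1, Ndufaf5, Ndufaf6 and Ndufaf7 and, in some gates, Ndufaf2 and Ndufaf4.

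In CD8 cells 0 members were at least 1.3-fold higher with mSTAR1302, where 5.43% of the 5139 genes tested were, and 1 of 78 was at least 1.3-fold lower, where 17.4% of all were. The median log2 ratio of the members was -0.05 and that of all genes -0.13, with 29 members above 0 and 49 below. For Foxp3-negative CD4 cells 6 of 77 members were higher (5.35% of 5100 genes) and 5 were lower (28.2%), with a median of 0.13 against -0.18 for all genes and 52 members above 0. For Foxp3-positive CD4 cells 0 of 76 were higher (4.40% of 5405 genes) and 1 was lower (18.3%), with a median of 0.03 against -0.12 and 42 members above 0.

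The count of members above 0 depends on the scaling. Of all genes tested, 28.3%, 28.1% and 32.3% had a ratio above 0 on CPM in the 3 gates. Scaling by the median gene ratio instead of the total therefore shifts every gene by 0.13, 0.18 and 0.12. The members then lay above 0 in 54 of 78, 68 of 77 and 63 of 76 cases. The calls became 1 higher and 1 lower in CD8 cells, 25 higher and 2 lower in Foxp3-negative CD4 cells, and 1 higher and 0 lower in Foxp3-positive CD4 cells. Over all genes the calls were 279 higher and 896 lower in CD8 cells on CPM and 476 and 554 on the other scale. They were 273 and 1437 against 647 and 701 in Foxp3-negative CD4 cells, and 238 and 988 against 463 and 546 in Foxp3-positive CD4 cells. A statement on direction for the members as a group therefore holds for CPM, unless the other scale is named.

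**Figure D2:**
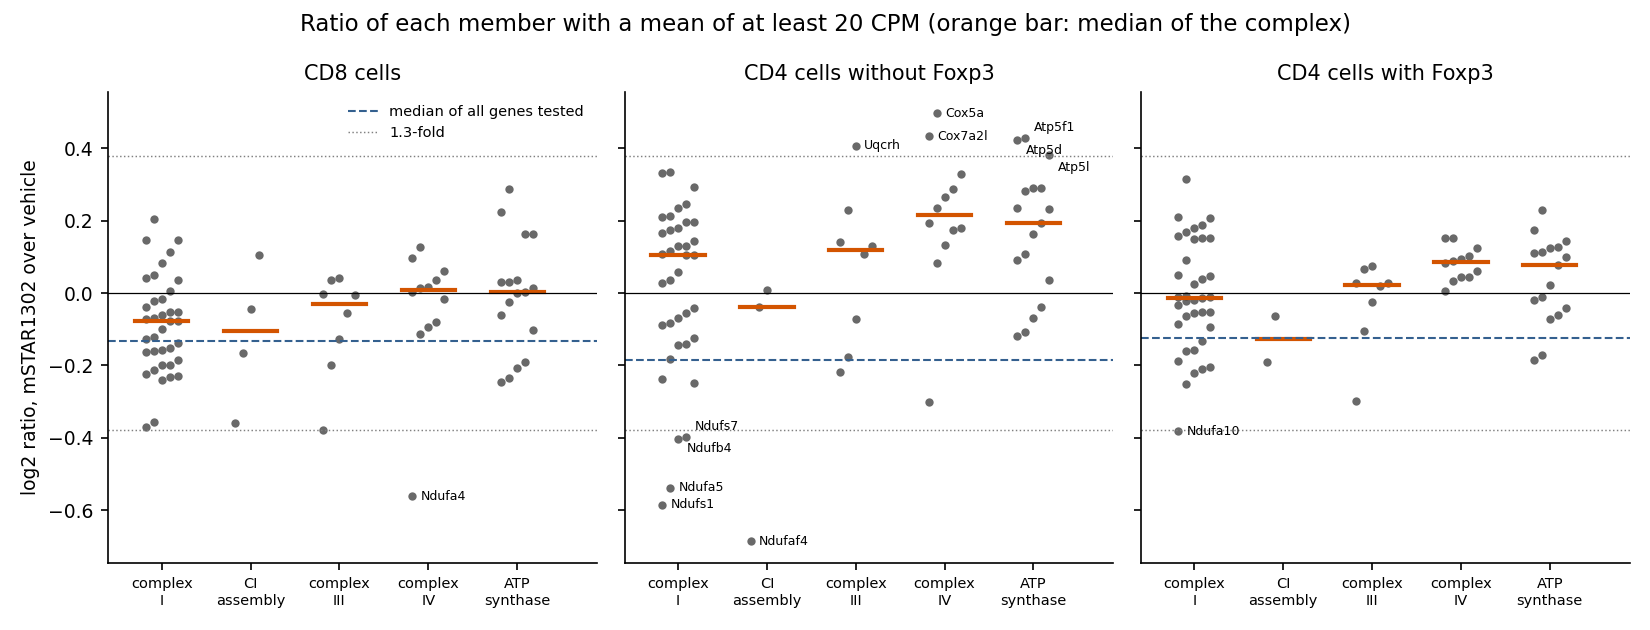
Log2 ratio of mSTAR1302 over vehicle for each member with a mean of at least 20 CPM, by complex and gate, with the orange bar at the median of the complex, the dashed line at the median of all genes tested and dotted lines at 1.3-fold. Ndufa4 stands alone at -0.56 in CD8 cells, and in Foxp3-negative CD4 cells the points of complex IV lie above 0 except for Ndufa4.

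Complex I, the entry point for electrons from NADH, was expressed unevenly. The 7 core subunits that carry the redox centres and bind NADH and ubiquinone had median levels of 65.6 and 77.8 CPM in CD8 cells, and the other 30 subunits 143.2 and 150.8 CPM. 3' tag counts are not divided by transcript length, since each molecule is counted once near its end. Ndufs1, the largest of the core subunits, had the lowest level of the complex, at 27.0 CPM with mSTAR1302 and 26.8 CPM with vehicle. Ndufb1-ps and Ndufa13 had the highest mean levels, at 394.4 and 441.0 CPM and at 399.9 and 404.2 CPM. Ndufa13, also known as GRIM-19, is an accessory subunit that has been linked to STAT3, and Ndufb1-ps is labelled as a non-coding type in the annotation although its name is that of an accessory subunit.

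No complex I subunit reached 1.3-fold in CD8 cells, where 9 of 37 lay above 0 and 28 below. Of all genes tested in that gate, 28.3% lay above 0. Ndufs4, an accessory subunit whose loss causes a mouse model of Leigh syndrome, had the largest upward ratio of the complex, at 99.4 CPM with mSTAR1302 and 86.0 CPM with vehicle (log2 ratio 0.21, interval 0.14 to 0.28). It did not pass the threshold, and its interval lies above 0.

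In Foxp3-negative CD4 cells the complex I subunits split: 22 of 37 lay above 0, where 28.1% of all genes tested did. The 5 members called lower included 4 of the 37, where 28.2% of all genes tested were called lower. Scaled by the median gene ratio, only Ndufs1 of these 4 subunits was still called. Ndufs1 had 18.2 CPM with mSTAR1302 and 27.8 CPM with vehicle, 1.53-fold lower (1.16 to 2.02), on 95 and 120 UMIs. Ndufa5, an accessory subunit of the matrix arm, had 68.0 and 99.1 CPM, 1.46-fold lower (1.26 to 1.68). Ndufb4, of the membrane arm, had 84.0 and 111.3 CPM (1.33-fold lower, 1.16 to 1.51), and Ndufs7, a core subunit with an iron-sulfur cluster, 57.8 and 76.4 CPM (1.32-fold lower, 1.13 to 1.55). Ndufb4 and Ndufs7 also lay below 0 in the other gates, while Ndufs1 had nearly equal levels in CD8 cells and in Foxp3-positive CD4 cells (33.7 and 33.9 CPM). In 9 other choices of cells the log2 ratios ran from -0.74 to -0.53 for Ndufs1, from -0.72 to -0.38 for Ndufa5 and from -0.51 to -0.28 for Ndufb4. Leaving out every cell with a UMI of Il2ra, Ctla4, Ikzf2 or Tnfrsf18 kept only 75 and 48 cells, too few to measure Ndufs1, at 6.19 and 35.99 CPM, and gave -1.42 for Ndufa5 and -0.09 for Ndufb4. On the upward side Ndufa3 (194.7 and 154.2 CPM, log2 ratio 0.33) and Ndufb10 (162.7 and 129.2 CPM, 0.33) came nearest to the threshold.

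In Foxp3-positive CD4 cells Ndufa10 (chr1:92439010-92473860), an accessory subunit, was the single member called, at 72.2 CPM on 90 UMIs with mSTAR1302 and 94.4 CPM with vehicle, 1.31-fold lower (1.06 to 1.64). With other choices of cells its log2 ratio ran from -0.43 to -0.05, and its ratio was above 0 in the other gates (0.15 and 0.20). Ndufa9 had the largest upward ratio in that gate, at 69.0 and 55.2 CPM (log2 ratio 0.32, interval -0.02 to 0.64). Ndufs5 (130.8 and 155.9 CPM, -0.25) and Ndufv1, which binds NADH (46.5 and 54.4 CPM, -0.22, interval -0.64 to 0.16), were the lowest after Ndufa10 and Uqcrb. With 146 cells on the mSTAR1302 side, intervals of this width are the limit on single members here.

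The assembly factors, which help to build complex I and are not part of the finished enzyme, were the least abundant set, with median levels of 16.3 and 18.3 CPM in CD8 cells. Ndufaf8 was the most abundant at 50.4 and 52.0 CPM. Ndufaf4 differed by gate: it had 26.7 and 24.8 CPM in CD8 cells and 17.6 and 28.9 CPM in Foxp3-negative CD4 cells, where it was 1.64-fold lower with mSTAR1302 (1.25 to 2.17). That ratio rests on 92 and 125 UMIs. It was below 0 in 9 other choices of cells, with log2 ratios from -0.91 to -0.51. In the 75 and 48 cells without regulatory T cell markers the gene had 9.28 and 20.6 CPM, a handful of UMIs. Ndufaf2 had 20.6 and 26.7 CPM in CD8 cells (log2 ratio -0.36, -0.51 to -0.24).

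Complex III passes electrons from ubiquinol to cytochrome c. Uqcrh, the hinge subunit beside cytochrome c1, was its most abundant member in every gate. It had 762.8 and 764.0 CPM in CD8 cells, 862.3 and 650.0 CPM in Foxp3-negative CD4 cells, where it was 1.33-fold higher with mSTAR1302 (1.27 to 1.39), and 713.3 and 681.2 CPM in Foxp3-positive CD4 cells. Uqcrq followed with 316.7 and 307.9 CPM in CD8 cells. Uqcrb (chr13:66900617-66905378), a subunit near the ubiquinone pocket, lay below 0 in all 3 gates. Its levels were 171.9 and 223.7 CPM in CD8 cells (1.3-fold lower, 1.26 to 1.34, just under the threshold after the pseudocount), 176.5 and 199.5 CPM in Foxp3-negative CD4 cells (log2 ratio -0.18, the median over all genes there), and 223.9 and 275.6 CPM in Foxp3-positive CD4 cells (1.23-fold lower, 1.09 to 1.40). Uqcrb has 2 near-identical copies elsewhere in the genome, so reads could be split among them and its counts are uncertain.

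Complex IV, which reduces oxygen to water, held the call in CD8 cells. Ndufa4 (chr6:11900292-11907497 on GRCm38) had 240.2 CPM with mSTAR1302 and 355.0 CPM with vehicle, 1.48-fold lower (1.44 to 1.52). Among Foxp3-negative CD4 cells it had 252.3 and 310.9 CPM (1.23-fold lower, 1.14 to 1.33), and in Foxp3-positive CD4 cells 415.6 and 374.0 CPM (1.11-fold higher, 1.01 to 1.22). Of the 12 tested genes of complex IV, 11 lay above 0 in Foxp3-negative CD4 cells and Ndufa4 was the exception. Among all genes tested there, 28.1% lay above 0. In CD8 cells the other 11 lay between -0.11 and 0.13 on the log2 scale.

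The Ndufa4 ratio in CD8 cells kept its direction in 9 of 9 other choices of cells, with log2 values from -0.56 to -0.39. The smallest, -0.39, came without cells that had a UMI of the division markers Mki67 or Top2a. Dividing cells of the vehicle library had 402.3 CPM of Ndufa4 and its other CD8 cells 302.1 CPM, against 252.6 and 230.8 CPM with mSTAR1302. The gap also differed with depth. In CD8 cells of 1000 to 3000 UMIs the levels were 151.0 CPM with mSTAR1302 and 155.0 CPM with vehicle, with overlapping intervals. From 6000 to 12000 UMIs they were 235.2 and 288.7 CPM, and in cells of 24000 UMIs or more 299.2 and 588.0 CPM. The gap was thus widest among the deepest cells, which numbered 90 and 124, and was present in each depth class from 3000 UMIs upward. For Foxp3-negative CD4 cells the ratio was less stable. It was below 0 in 9 of 10 choices of cells, from -0.52 to -0.06, and 0.28 in the 75 and 48 cells without regulatory T cell markers. By depth the levels were 260.8 CPM with mSTAR1302 and 235.3 CPM with vehicle at 3000 to 6000 UMIs, and 228.8 and 495.3 CPM at 12000 to 24000 UMIs, so the lower level with mSTAR1302 was that of the deeper cells, 58 and 44 in the last class. Near-empty droplets, which hold free RNA, had 220.4 CPM of Ndufa4 in the mSTAR1302 library and 413.1 CPM in the vehicle library, an order like that of the CD8 cells, and the part of free RNA was not tested.

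**Figure D3:**
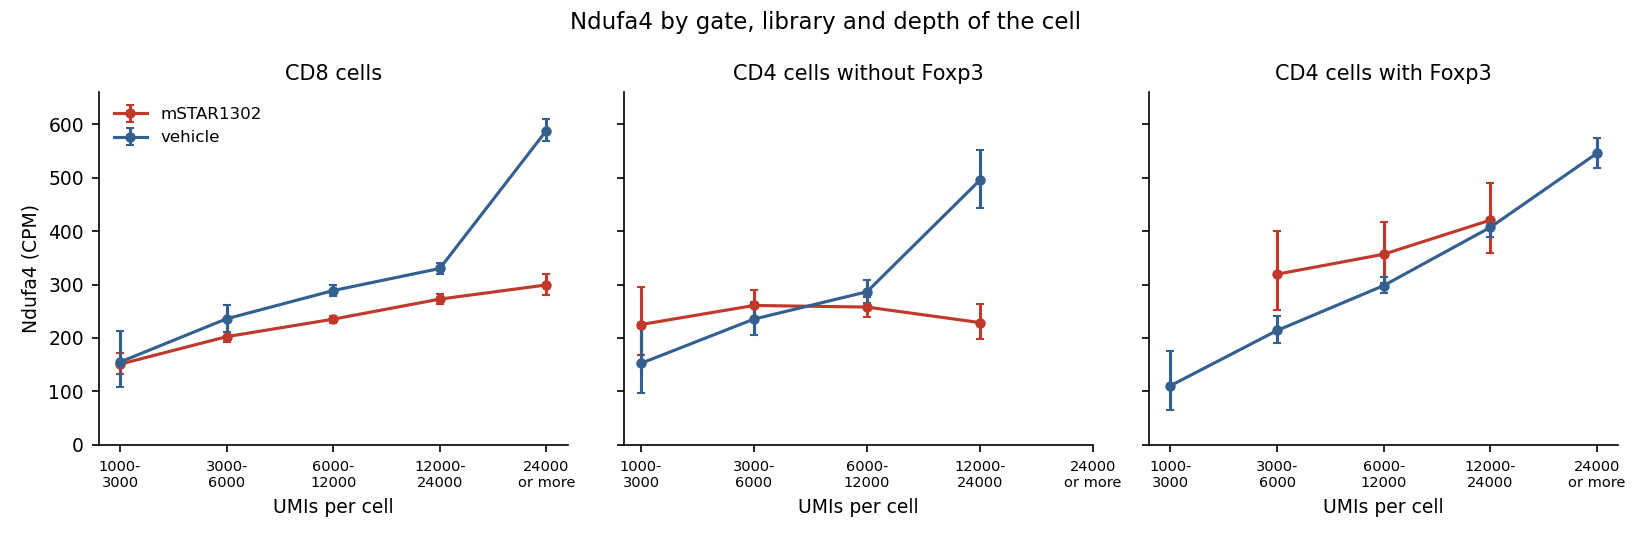
Level of Ndufa4 in CPM against the UMIs per cell in each gate, for the mSTAR1302 and the vehicle library, with 95% Poisson intervals that cover counting error only. In CD8 cells the lines start together at 151.0 and 155.0 CPM and part to 299.2 and 588.0 CPM in the deepest cells.

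The other complex IV genes called were Cox5a and Cox7a2l, both in Foxp3-negative CD4 cells. Cox5a, whose window is printed above, had 371.0 CPM with mSTAR1302 and 262.7 CPM with vehicle, 1.41-fold higher (1.31 to 1.52), against 398.6 and 372.5 CPM in CD8 cells and 429.3 and 416.4 CPM in Foxp3-positive CD4 cells. The ratio stayed above 0 in all 10 other choices of cells, with log2 values from 0.44 to 0.58. Cox7a2l, also called SCAF1, joins complexes III and IV into a supercomplex. It had 494.2 and 365.7 CPM, 1.35-fold higher (1.27 to 1.44). In the 75 and 48 cells without regulatory T cell markers its log2 ratio was 0.27 instead of 0.43. Cox8a (866.7 and 690.3 CPM) and Cox4i1 (906.6 and 742.1 CPM), the 2 most abundant genes of the set, were higher in the same gate by less than the threshold.

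Several complex IV subunits exist as tissue forms, often one for most tissues and one for muscle, lung or testis. Cox4i1, Cox6b1, Cox7b, Cox8a and Ndufa4 each took over 99% of the UMIs of their set in every gate and library. Cox7b2, Cox8b and Cox8c had 0 UMIs. For Cox8b in CD8 cells this allows up to 0.00672% of the set with mSTAR1302 and 0.0115% with vehicle, as 3 counts would give.

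Cox7a2 and Cox7a2l both occurred at high levels, and their balance differed by cell type. Cox7a2l took 51.8% of the set in CD8 cells with mSTAR1302 (51.3 to 52.3%) and 49.8% with vehicle (49.2 to 50.5%). Among Foxp3-positive CD4 cells it took 38.8% (35.8 to 41.9%) and 38.3% (37.3 to 39.2%). In Foxp3-negative CD4 cells the shares were 55.6% (54.1 to 57.0%) and 49.5% (47.7 to 51.2%). The cells with Foxp3 thus had the lowest share in both libraries, and the libraries differed beyond counting error in the other gates. Cox7a1, the muscle form, had 3.0 to 3.8 CPM throughout.

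Cox6a2, the muscle form of Cox6a (chr7:128205435-128206387), had the widest gap of any member, and it was found mainly in other cells. It had 0 UMIs in both CD4 gates with mSTAR1302, against 25.5 CPM (110 UMIs in 11 cells) without Foxp3 and 13.5 CPM (195 UMIs in 38 cells) with Foxp3 in the vehicle library. The mSTAR1302 levels were at least 44.3-fold and 5.62-fold lower, taking 3 counts per library as the floor. In CD8 cells it had 6 and 146 UMIs. Siglech and Ccr9 mark plasmacytoid dendritic cells. Cells with at least 5 UMIs of these genes held 92.7% of the Cox6a2 UMIs of the vehicle Foxp3-negative CD4 cells, 80.5% of those with Foxp3 and 54.8% of those of the CD8 cells. Among all kept cells, 23 such cells with mSTAR1302 and 299 with vehicle held 95.3% and 97.7% of all Cox6a2 UMIs, at 1044 and 1458 CPM, and 91.3% and 96.3% of them had a Cox6a2 UMI. In kept cells with no Siglech or Ccr9 UMI, Cox6a2 was found in 0.0992% and 2.33%, at median depths of 6249 and 8105 UMIs. Near-empty droplets of the vehicle library had 95.9 CPM of it, and those of the mSTAR1302 library 13.5 CPM on 3 UMIs. Whether shares at this level come from free RNA, from other cells or from expression by T cells was not tested.

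ATP synthase genes were the most abundant set in every gate. Atp5e, the epsilon subunit of the rotor, led with 981.0 and 955.9 CPM in CD8 cells, 937.4 and 836.3 CPM in Foxp3-negative CD4 cells and 1081 and 1137 CPM in Foxp3-positive CD4 cells. The other end of the set was Atp5g1, one of the genes of the c-ring, at 217.3 and 215.3 CPM in CD8 cells. In CD8 cells the upward end of all 78 ratios lay in this set. Atp5mpl, a small membrane subunit also known as 6.8PL, had 378.0 and 309.7 CPM (log2 ratio 0.29, 0.25 to 0.32), and Atp5o, the stalk subunit OSCP, 252.5 and 216.2 CPM (0.22, 0.18 to 0.27). Neither reached 1.3-fold on CPM.

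Among Foxp3-negative CD4 cells 3 genes of ATP synthase were called higher. Atp5f1, subunit b of the outer stalk, had 310.1 and 230.3 CPM, 1.35-fold higher (1.24 to 1.46). Atp5d, the delta subunit of the central stalk, had 392.4 and 292.4 CPM, 1.34-fold higher (1.25 to 1.44). Atp5l, whose window is printed above, had 771.8 and 592.6 CPM, 1.3-fold higher (1.24 to 1.37). Atp5f1 has 1 and Atp5l 8 near-identical copies in the genome. Atp5g1 and the complex I gene Ndufs5 have 1 each. Atp5o matches another entry of the same name, which overlaps it on the same strand and is not a copy elsewhere. The counts of these genes are therefore uncertain in the way of Uqcrb. For Foxp3-positive CD4 cells Atp5j2, subunit f, had the largest ratio of the set (646.7 and 551.2 CPM, log2 ratio 0.23).

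Depth differed between the libraries, so the sum of all members was also read in cells of similar UMI counts. It was higher in deeper cells in each gate of each library. In CD8 cells of 1000 to 3000 UMIs it was 15900 CPM with mSTAR1302 and 11818 CPM with vehicle, and from 6000 to 12000 UMIs 20781 and 19837 CPM. Only the class of 24000 UMIs or more had the reverse order, at 23503 and 26437 CPM. Within depth classes the CD8 cells thus had higher levels with mSTAR1302 in 4 of 5 classes, while the sum over all CD8 cells was lower.

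For Foxp3-negative CD4 cells the levels were 16334 and 10824 CPM at 1000 to 3000 UMIs, 18639 and 15994 CPM at 3000 to 6000, and 20907 and 17370 CPM at 6000 to 12000. They met at 22233 and 22415 CPM from 12000 to 24000, in 58 and 44 cells. In Foxp3-positive CD4 cells they were 20067 and 16388 CPM at 3000 to 6000 UMIs and 21983 and 19975 CPM at 6000 to 12000, and again met above that, at 23535 and 23701 CPM. With each cell thinned to 3000 UMIs, leaving out 680 and 120 CD8 cells, the median share of a cell's UMIs in members was 2.000% in both libraries (unthinned 1.985% and 1.978%). It was 1.967% against 1.667% in Foxp3-negative CD4 cells (1.939% and 1.601% unthinned, 101 and 77 cells left out). Among Foxp3-positive CD4 cells it was 2.133% against 2.000% (2.065% and 1.964% unthinned, 12 and 76 left out).

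**Figure D4:**
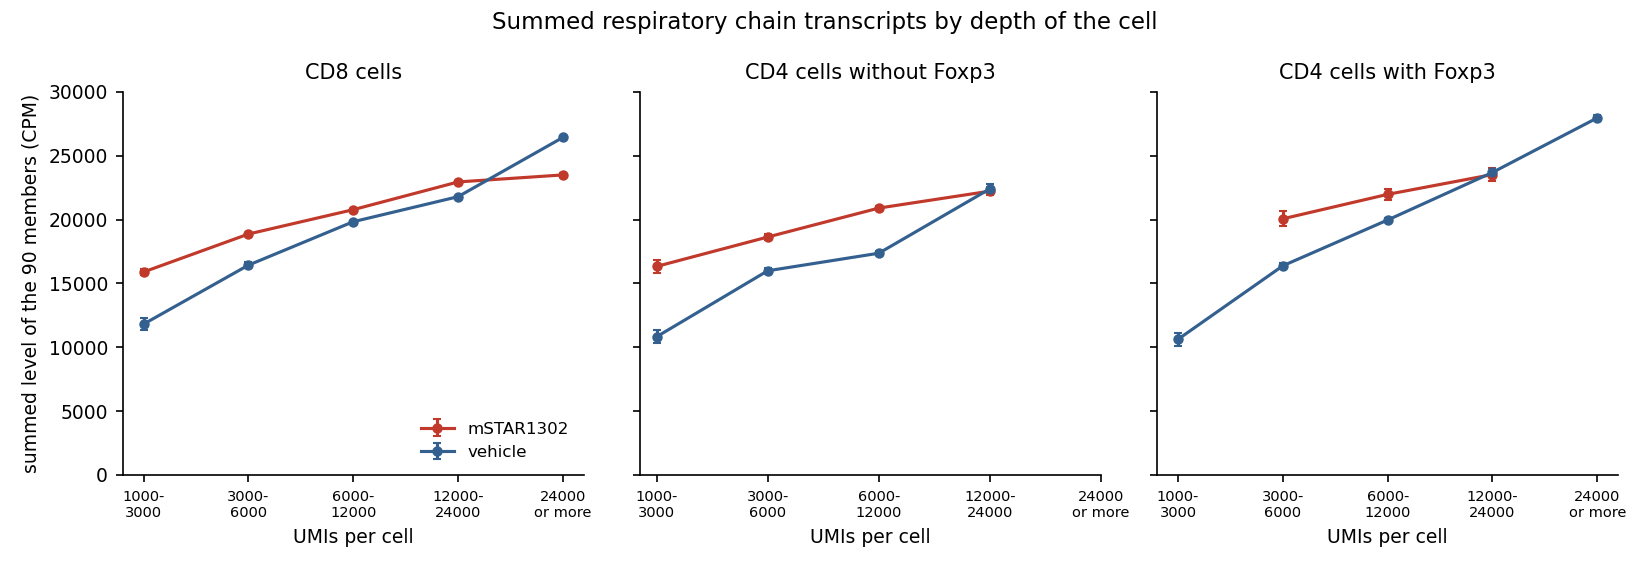
Summed level of the 90 members in CPM against the UMIs per cell, by gate, for the mSTAR1302 and the vehicle library, with 95% Poisson intervals that cover counting error only; points are drawn for classes of cells that both or one of the libraries filled. The mSTAR1302 line lies above the vehicle line up to 12000 UMIs in each gate where both have a point and meets or crosses it in the deepest class that both filled.

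The members also varied with the state of the cell. Dividing CD8 cells, with a UMI of Mki67 or Top2a, had 21764 CPM against 20437 CPM in the other CD8 cells with mSTAR1302, and 22489 against 20481 CPM with vehicle. In 66 and 68 of 78 members the level was higher in dividing cells, with median log2 ratios of 0.13 and 0.17. The same share over all genes was not computed, so these counts have no background to be read against. Dividing cells made up 33.3% and 42.5% of the CD8 cells. For Foxp3-positive CD4 cells the corresponding sums were 23380 and 21852 CPM, and 23496 and 19974 CPM.

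Cells with Tcf7, a transcription factor of naive and stem-like T cells, had lower sums. In Foxp3-negative CD4 cells those with a Tcf7 UMI had 18708 CPM against 20871 CPM in those without one with mSTAR1302, and 16443 against 19805 CPM with vehicle. They were 24.0% of that gate with mSTAR1302 and 42.8% with vehicle. Within each Tcf7 class the mSTAR1302 cells had the higher level. Pdcd1, the gene of the checkpoint receptor PD-1, went the other way in CD8 cells: those with a Pdcd1 UMI had 21923 against 20517 CPM with mSTAR1302 and 21820 against 20840 CPM with vehicle. A UMI of any of these genes is found more often in deeper cells, and the members' sum is higher in them, so these splits are not free of depth.

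Over all cells of a gate, the order of the gates was the same in both libraries: Foxp3-positive CD4 cells had the highest sum, then CD8 cells, then Foxp3-negative CD4 cells. It was not kept in each depth class. With vehicle, CD8 and Foxp3-positive CD4 cells had 16435 and 16388 CPM at 3000 to 6000 UMIs, and 21797 and 23701 CPM at 12000 to 24000. With mSTAR1302, CD8 and Foxp3-negative CD4 cells had 20781 and 20907 CPM at 6000 to 12000 UMIs. The step from CD8 cells to Foxp3-positive CD4 cells was 0.12 on the log2 scale with mSTAR1302 and 0.06 with vehicle, next to medians over all genes of 0.17 and 0.15. The step from Foxp3-negative CD4 cells up to CD8 cells was 0.05 and 0.24, next to medians over all genes of 0.02 and -0.02. In the vehicle library 72 of 78 members were higher in CD8 cells than in Foxp3-negative CD4 cells, and all 12 tested genes of complex IV were. With mSTAR1302 57 of 77 members and 8 of 12 genes of complex IV were.

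The relative levels of the members were nearly the same in both libraries. Across members, Pearson's r between the libraries was 0.993 in CD8 cells (78 genes), 0.988 in Foxp3-negative CD4 cells (77) and 0.993 in Foxp3-positive CD4 cells (76), as a description across genes that share their libraries. The 90 genes lie on 19 chromosomes.

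The mitochondrially encoded subunits are the partners of these proteins. All 13 were measured, and their sum was higher with mSTAR1302 in each gate. It was 37609 CPM against 32721 CPM in CD8 cells (log2 ratio 0.20), 40868 against 34801 CPM in Foxp3-negative CD4 cells (0.23) and 36529 against 27473 CPM in Foxp3-positive CD4 cells (0.41, 0.40 to 0.42). In the last gate 7 of 13 were at least 1.3-fold higher, where 4.40% of all genes tested were, among them mt-Nd3 (504.7 and 328.1 CPM) and mt-Atp6 (7377 and 5070 CPM), and in the other gates 0 of 13 were. By complex, the widest gap was that of the mitochondrial genes of ATP synthase in Foxp3-positive CD4 cells, at 7586 and 5274 CPM (log2 ratio 0.52).

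UMIs of mitochondrial genes per UMI of a nuclear member came to 1.79 with mSTAR1302 and 1.52 with vehicle in CD8 cells, 2.01 and 1.91 in Foxp3-negative CD4 cells, and 1.6 and 1.23 in Foxp3-positive CD4 cells. These values depend on the filter that removes cells with over 10% mitochondrial UMIs, which left out 1872 and 1704 barcodes. Without it the log2 ratios of the mitochondrial sum were 0.13, 0.08 and 0.57 in the 3 gates, and with a limit of 5% they were 0.11, 0.13 and 0.35. Among Foxp3-negative CD4 cells the order of the mitochondrial to nuclear ratio then turned, to 2.26 and 2.40 without a limit and to 1.62 and 1.67 at 5%. In CD8 cells and Foxp3-positive CD4 cells it kept its order under both.

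**Figure D5:**
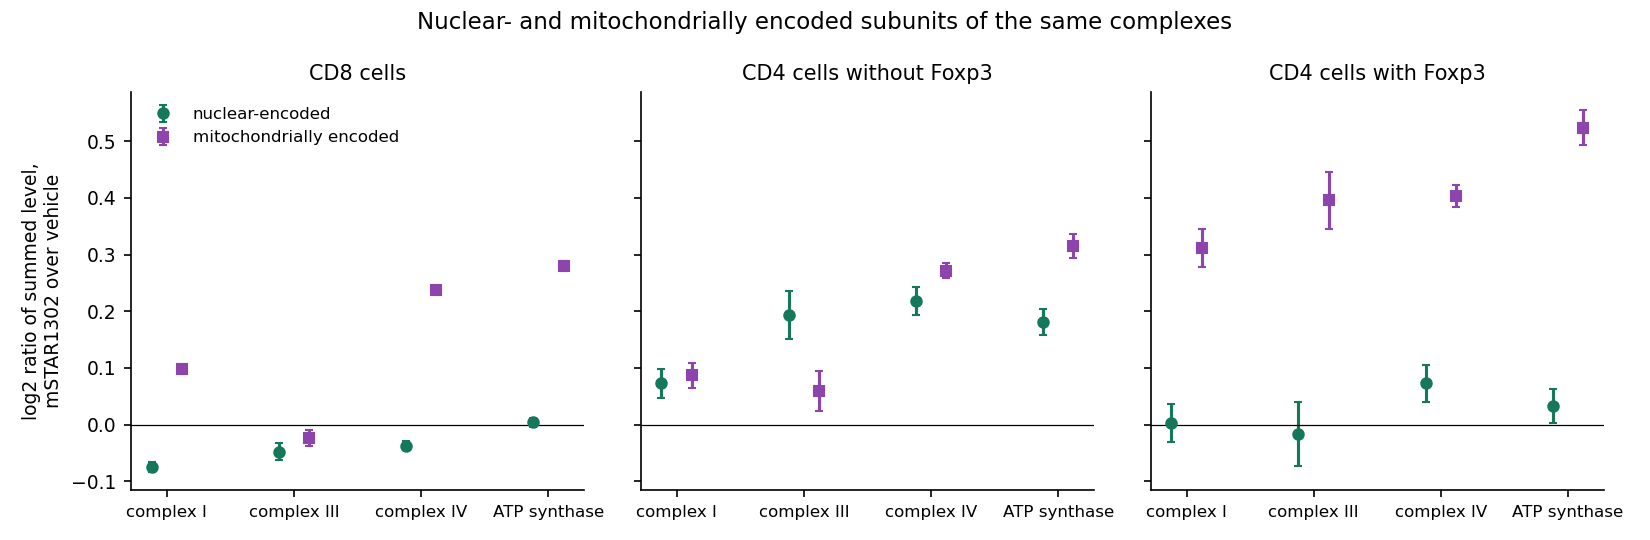
Log2 ratio of mSTAR1302 over vehicle for the nuclear-encoded and the mitochondrially encoded genes of each complex, by gate, with 95% intervals that cover counting error only. The mitochondrially encoded points lie above the nuclear ones for complex IV and ATP synthase in each gate, with the widest gap in Foxp3-positive CD4 cells (0.52 and 0.03 for ATP synthase).

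Other genes of the pathway were read from fixed lists. Their counts stand beside the shares over all genes tested given above, 5.43% higher and 17.4% lower in CD8 cells, 5.35% and 28.2% in Foxp3-negative CD4 cells, and 4.40% and 18.3% in Foxp3-positive CD4 cells. Of 9 genes of complex II and the electron carriers, all passed the minimum, and 1 was called in each gate. Etfb, of the electron transfer flavoprotein, was lower in CD8 cells (75.04 and 100.2 CPM), Cycs, cytochrome c, was higher in Foxp3-negative CD4 cells (179.0 and 136.8 CPM), and Etfa was lower in Foxp3-positive CD4 cells (46.5 and 65.4 CPM). A further list held 33 symbols of assembly and import factors of the chain and ATP synthase, complex I included, and 32 were in the files. Of these, 13 passed in CD8 cells and in Foxp3-negative CD4 cells. Atpif1, the inhibitor that stops ATP synthase from running backwards, was lower in both, with 127.6 and 188.2 CPM and with 85.6 and 134.0 CPM. Tmem126a was also lower in CD8 cells. Cox17, a copper chaperone of complex IV (363.5 and 275.0 CPM), and Uqcc3 (81.9 and 58.8 CPM) were higher in Foxp3-negative CD4 cells. Among 14 such factors that passed in Foxp3-positive CD4 cells, Cox20 was lower.

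Enzymes of the TCA cycle, which feed the chain with electrons, gave 0 calls upward in any gate, and 1 of 15 (Fh1, fumarase, 26.4 and 42.9 CPM), 1 of 14 (Dld) and 2 of 16 (Fh1 and Sucla2) downward, each a smaller share than that of all genes tested in the gate. Of the regulators, 6 of 14 passed. Hif1a, the oxygen-sensitive factor that favours glycolysis, was lower in CD8 cells (438.9 and 596.2 CPM). Gabpa, the DNA-binding part of GABP, was lower in both CD4 gates, and in Foxp3-positive CD4 cells Gabpb1 was lower and Nrf1 higher (53.0 and 39.8 CPM, on 66 and 574 UMIs). Ppargc1a, which encodes PGC-1α, had at most 4 UMIs in a gate. Among 8 genes of proton leak and of the defence against reactive oxygen, Gpx1, a glutathione peroxidase, was lower in CD8 cells (91.6 and 176.2 CPM) and in Foxp3-negative CD4 cells (91.9 and 203.7 CPM), where Gpx4 and Sod2 were called lower too. In Foxp3-positive CD4 cells it had 222.3 and 247.3 CPM, and Prdx5 was the gene called lower.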

How the data were processed

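Droplet 3' RNA libraries of T cells were read from the deposited UMI counts, whole numbers that the authors made with Cell Ranger (version 4 per the file headers, 6.0.1 per the submitters' processing notes, which also name mm10, FastQC, MultiQC 1.9 and Seurat). The sources used here do not give the annotation release. Barcodes with at least 1000 UMIs, 500 genes and at most 10% mitochondrial UMIs were kept, and T cells had at least 2 UMIs of Cd3d, Cd3e and Cd3g together. Cells with Cd4 and Cd8 (843 with mSTAR1302, always given first, and 1302 with vehicle) or neither (648 and 980) were not gated, and no doublet caller was run. UMIs were summed per gate and library. The totals were 48798286 and 28941995 for CD8 cells, 5224169 and 4320132 for Foxp3-negative CD4 cells, and 1246325 and 14426733 for Foxp3-positive ones. Ratios used a pseudocount of 1 CPM. Intervals are exact Poisson for CPM, conditional binomial for ratios and Clopper-Pearson for shares.

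The members and gene lists were chosen with earlier results of these data known. Named were the 2 most abundant members of each complex, the 4 largest ratios in each direction per gate and the sets of isoforms, and Ndufs7 and AA467197 were added after their values were seen. One gene that this rule names is not reported here. Near-identical copies (at least 98% identity over 90 bases of the last 300) were found with BLAST 2.17.0 in GENCODE M21 transcripts for 19 of 90 members, and gene positions are from the same release on GRCm38. For Atp5o, Ndufb2 and Ndufb8 the match is an entry that overlaps the member on the same strand. The calling step was tested on simulated data. Alternatives covered scaling, minimum, pseudocount, the mitochondrial limit, gates, weighting and thinning of cells, and cells left out. The work used Python 3.11.15 with NumPy 2.4.6, SciPy 1.17.1, matplotlib 3.10.9 and pandas 2.3.3.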

Additional observations from a re-analysis of the deposited data

Results flagged for a closer look

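The log2 ratio of mSTAR1302 over vehicle had opposite signs between the CD8 gate and a CD4 gate for several sets of genes, and the difference between the gates was not tested, since each gate comes from the same 2 libraries. Against CD8 cells, Foxp3-negative CD4 cells differed by 0.15 for the complex I subunits (-0.08 in CD8 cells and 0.07 in Foxp3-negative CD4 cells), by 0.24 for complex III (-0.05 and 0.19), by 0.26 for complex IV (-0.04 and 0.22) and by 0.20 for all members (-0.04 and 0.16). Without Uqcrh the complex III ratios in these 2 gates were -0.07 and 0.06. Foxp3-positive CD4 cells differed from CD8 cells by 0.11 for complex IV (-0.04 and 0.07) and by 0.07 for all members (-0.04 and 0.03). These signs are those of CPM over all gated cells, and the sign in CD8 cells depended on the processing. Of 14 alternatives in CD8 cells, 6 put the sum of all members above 0 and 4 put complex IV above 0. Complex III lay above 0 in 2 of the 14 and complex I in 1. Scaled by the median gene ratio, the sum of all members lay above 0 in each gate.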

How the results depend on the processing

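No paired analysis was possible because each group is 1 library, and for the same reason no replicate could be left out. The log2 ratio of all members in CD8 cells, -0.04 on CPM, was -0.03 with a mitochondrial limit of 5%, without a limit and with at least 4 Cd3 UMIs. It was -0.01 with at least 2 lineage UMIs and without cells with a Foxp3 UMI, 0.00 without dividing cells and without cells that had 3 or more macrophage, dendritic and NK marker UMIs, 0.01 with cells weighted equally, with cells thinned and without the 5% deepest cells, 0.02 on a total without mitochondrial and ribosomal protein genes, and 0.10 with median scaling. In CD8 cells the sign of the sum therefore depends on these choices. For Foxp3-negative CD4 cells, 0.16 on CPM, it was above 0 in all 15 alternatives: 0.11 with at least 2 lineage UMIs, 0.18 at a 5% limit, with at least 4 Cd3 UMIs and without cells with dendritic cell markers, 0.20 without dividing cells, 0.21 thinned, 0.23 without cells with 3 or more marker UMIs, 0.24 without the deepest cells and on the reduced total, 0.25 with equal weight and 0.35 with median scaling. Among Foxp3-positive CD4 cells, 0.03 on CPM, it was 0.00 with at least 2 lineage UMIs, 0.01 without a mitochondrial limit, 0.05 without cells with dendritic cell markers, 0.07 thinned, 0.10 with equal weight, 0.11 on the reduced total, 0.13 without dividing cells and 0.16 with median scaling. The alternatives that left out cells with marker UMIs or barcodes found in both libraries were chosen after seeing the data.

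The count of members at least 1.3-fold apart in CD8 cells was 1, and 2 without a minimum, with a pseudocount of 0.1 CPM and with median scaling. In Foxp3-negative CD4 cells it was 11, and 27 with median scaling, 13 with a minimum of 10 CPM, 9 with one of 50 CPM, 14 without a minimum, 9 with a pseudocount of 5 CPM and 11 with one of 0.1 CPM. For Foxp3-positive CD4 cells it was 1, and 3 without a minimum and 0 with a pseudocount of 5 CPM. Where a value moved the cause was not tested, except that a scaling shifts every gene alike. Depth limits the Foxp3-positive CD4 cells most, with 146 cells in the mSTAR1302 library, and genes under 20 CPM in each gate.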

Other observations

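AA467197 is the mouse gene of a small protein related to NDUFA4, known as C15orf48 or NMES1 in humans, which has been described as taking the place of NDUFA4 in complex IV of inflamed cells. It stands outside the members and was looked up after the values of Ndufa4 were seen. It had 128.5 CPM with mSTAR1302 and 42.7 CPM with vehicle in CD8 cells, 3.01-fold higher (2.83 to 3.20), and 140.3 and 37.3 CPM in Foxp3-negative CD4 cells, 3.77-fold higher (3.17 to 4.49). In Foxp3-positive CD4 cells it had 60.2 and 94.0 CPM, 1.56-fold lower (1.24 to 2.00). Its direction was thus opposite to that of Ndufa4 in each of the 3 gates. The CD8 ratio was 3.01-fold without dividing cells too, that of Foxp3-negative CD4 cells 5.22-fold, and that of Foxp3-positive CD4 cells 1.09-fold higher (0.80 to 1.46), so the last direction was not kept. In CD8 cells the level of AA467197 was similar across depth, at 128.3, 128.4 and 134.4 CPM with mSTAR1302 and 43.8, 40.5 and 48.7 CPM with vehicle in cells from 3000, 6000 and 12000 UMIs. Cells with fewer than 3 macrophage, dendritic and NK marker UMIs gave 127.5 and 44.1 CPM.

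In point values the inverse order also appeared among cells of similar depth. In mSTAR1302 CD8 cells of 6000 to 12000 UMIs, the 1325 with an AA467197 UMI had 205.3 CPM of Ndufa4 (197.1 to 213.8). The 1288 without one had 267.3 CPM (257.5 to 277.3). In vehicle CD8 cells of that depth the levels were 268.5 CPM (248.4 to 289.9, 267 cells) and 294.4 CPM (283 to 306, 961 cells). Among Foxp3-negative CD4 cells with mSTAR1302 they were 195.7 CPM (172.8 to 220.9, 160 cells) and 314.7 CPM (286.6 to 344.7, 182 cells). With vehicle they were 260.7 CPM (214.9 to 313.5, 50 cells) and 292.1 CPM (268.5 to 317.3, 243 cells). In both gates the intervals were apart with mSTAR1302. They overlapped with vehicle, where the order is not clear of counting error. In Foxp3-positive CD4 cells of that depth the levels with vehicle were 260.1 and 324.3 CPM, with intervals apart. With mSTAR1302 they were 281.7 and 392.9 CPM, with overlapping intervals. Cells of 1 library are not replicates, and these values are a description of the libraries.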
